A study of Mus musculus with 6 samples.

Results

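The 10 genes studied here belong to the NF-κB system, 5 of them subunits and 5 inducible inhibitors. They were measured in whole kidneys of male mice with and without induced tubular deletion of Pkd1, the gene of the membrane protein polycystin-1. The members were taken by name, as listed genes of the pathway: the subunit genes Rela, Relb, Rel, Nfkb1 and Nfkb2, and the inhibitor genes Nfkbia, Nfkbie, Nfkbiz, Tnfaip3 and Birc3. They are 10 of the 56923 genes listed in the count tables, each matched 1 identifier, and all 10 passed the filter on low counts and stood among the 18273 genes tested. The first group was 3 Pkd1 KO kidneys (genotype Pkd1flox/flox.Pax8rtTA.Tet-O-Cre), in which doxycycline lets an activator driven by Pax8, a factor of tubule epithelium, switch on Cre. The 3 control kidneys (Pkd1flox/flox.Tet-O-Cre) shared the floxed alleles and the Cre transgene, lacked the activator and received the same doxycycline. The drug was given in water at 2 mg/ml with 5% sucrose from day 28 to day 42 after birth, and kidneys were taken at 10 weeks. Kidneys are called KO 1 to KO 3 and control 1 to control 3 after their labels. Mouse strain, the exons flanked by lox sites and whether animals were littermates are not given in the sources used here.

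NF-κB is a family of dimeric transcription factors. In resting cells IκB proteins hold the dimers in the cytoplasm. A kinase complex, IKK, marks the IκB protein for destruction after signals from tumour necrosis factor, interleukin-1 or Toll-like receptors, and the freed dimer enters the nucleus. Dimers of the RelA and p50 proteins carry this canonical route. A slower route through the kinase NIK processes the p100 protein to p52, which pairs with RelB. Many NF-κB targets are its own inhibitors, so that the transcripts of IκBα, IκBε, IκBζ, A20 and cIAP2 are commonly read as feedback products. In the kidney both tubule epithelium and infiltrating leukocytes have the pathway, and transcript levels do not measure where the protein is or whether it is active.

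Promoter sequence is shown for 5 members, because the subunits and inhibitors that differed between the groups include genes with and without a κB consensus near their start. Each line gives 300 bases of the RefSeq table for GRCm38.p6, 5′ to 3′ on the gene's strand, 250 before and 50 after an annotated start, with capitals at matches to the κB consensus on either strand.
Nfkb2, chr19:46304487-46304786, plus strand: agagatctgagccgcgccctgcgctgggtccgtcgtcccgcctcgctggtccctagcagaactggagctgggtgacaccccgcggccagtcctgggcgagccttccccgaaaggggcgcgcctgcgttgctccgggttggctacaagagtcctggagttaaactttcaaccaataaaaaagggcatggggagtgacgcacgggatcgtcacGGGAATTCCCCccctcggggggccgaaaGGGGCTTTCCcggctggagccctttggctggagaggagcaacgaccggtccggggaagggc
Rela, chr19:5637291-5637590, plus strand: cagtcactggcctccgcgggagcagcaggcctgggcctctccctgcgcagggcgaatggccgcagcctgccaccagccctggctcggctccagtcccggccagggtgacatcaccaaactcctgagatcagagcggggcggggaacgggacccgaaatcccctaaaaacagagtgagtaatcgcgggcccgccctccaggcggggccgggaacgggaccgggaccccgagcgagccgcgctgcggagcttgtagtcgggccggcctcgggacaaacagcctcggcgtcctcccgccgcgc
Nfkbia, chr12:55492598-55492897, minus strand: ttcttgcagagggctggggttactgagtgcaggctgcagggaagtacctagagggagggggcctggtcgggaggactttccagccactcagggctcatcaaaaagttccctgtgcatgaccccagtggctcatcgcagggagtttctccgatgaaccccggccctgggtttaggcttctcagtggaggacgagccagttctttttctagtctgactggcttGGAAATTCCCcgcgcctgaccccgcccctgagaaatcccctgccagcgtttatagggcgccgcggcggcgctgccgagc
Nfkbie, chr17:45555450-45555749, plus strand: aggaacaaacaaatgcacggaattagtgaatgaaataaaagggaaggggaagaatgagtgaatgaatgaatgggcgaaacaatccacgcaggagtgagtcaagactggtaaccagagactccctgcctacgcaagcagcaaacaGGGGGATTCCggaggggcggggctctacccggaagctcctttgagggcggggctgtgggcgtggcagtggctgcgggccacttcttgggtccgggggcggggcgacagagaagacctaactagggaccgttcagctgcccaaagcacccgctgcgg
Birc3, chr9:7873121-7873420, minus strand: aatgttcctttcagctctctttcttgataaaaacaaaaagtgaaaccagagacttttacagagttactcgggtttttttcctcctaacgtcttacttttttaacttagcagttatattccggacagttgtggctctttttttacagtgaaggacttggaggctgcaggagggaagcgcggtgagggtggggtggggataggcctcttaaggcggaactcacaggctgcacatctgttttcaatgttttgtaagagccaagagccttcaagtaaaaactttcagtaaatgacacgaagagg

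In the printed Nfkb2 window the matches start 39, 38 and 11 bases before the start site, and the first of them reads as a match on both strands and overlaps the next. Windows of other annotated Nfkb2 starts, not printed, have matches 236 and 225 bases before and 10 bases after their start. Nfkbia has its match 29 bases and Nfkbie 106 bases before the start. The Rela and Birc3 windows hold none. The table has an entry for 7 of the 10 members, not for Nfkb1, Relb or Nfkbiz, and 5 of those 7 (Nfkb2, Rel, Nfkbia, Nfkbie and Tnfaip3) hold at least 1 match. A gene with several annotated starts counts if any of its windows does, and another Tnfaip3 window holds no match. Of all 32851 RefSeq promoters of this length, 8.46% hold 1, and of the 12397 tested genes with an entry 12.2% do. A match is a stretch of letters and says nothing of binding in these kidneys.

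All values rest on deposited gene counts of 51966474 to 62983791 per Pkd1 KO library and 45020173 to 55548316 per control library. Levels are given in CPM, read counts divided by the scaled library size, with the SD over kidneys, and differences are log2 fold changes of Pkd1 KO over control ± standard error (SE) from edgeR's quasi-likelihood test with Benjamini-Hochberg adjusted p over all genes. A gene is called at an adjusted p under 0.05. The transcriptomes differed broadly: 46.9% of tested genes were called, 22.7% higher and 24.2% lower in Pkd1 KO kidneys, with a median log2 fold change of 0.026. By the run names, the Pkd1 KO libraries were sequenced in 1 project and the controls in another, and the effects of project and genotype cannot be told apart. Read coverage can vary with GC content and gene length between library sets, so each member's difference is followed by its value in a second edgeR fit with offsets for GC content and exon length, which called 34.5% of genes, 17.1% higher and 17.3% lower. Pkd1 itself, counted over the whole gene, had 8.77 to 10.01 CPM in Pkd1 KO and 23.6 to 46.4 CPM in control libraries (−1.85 ± 0.24, adjusted p = 0.00234 in edgeR; offset fit −0.34, adjusted p = 0.0644). Nothing in the labels ties a kidney to a litter or cage, and p-values measure the spread between these 6 samples. In whole kidney, fewer cells of a type and less RNA per cell cannot be told apart.

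Of the 10 members, 3 were called higher in Pkd1 KO kidneys and 3 lower. The lower ones were subunits of the canonical and p52 routes, Rela, Nfkb1 and Nfkb2, and the higher ones were inhibitor genes, Nfkbie, Nfkbiz and Birc3. The groups lay apart for the same 6 members, 3 with Pkd1 KO above and 3 with Pkd1 KO below, against 31.2% and 30.0% of all tested genes (61.2% in both directions). In the fit without offsets, 3 higher and 3 lower of 10 is close to the 22.7% and 24.2% called over all genes. The number of calls there does not set the family apart. The median over the members was −0.21, against 0.026 over all tested genes. In the offset fit 3 were again higher, the same genes, and 3 lower, with Nfkbia in place of Nfkb2, at a median of 0.0096 against 0.00083 over all genes. Over all genes 17.1% were higher and 17.3% lower in that fit, and whether the member counts exceed these shares was not tested. Of 22 leukocyte markers, described last with a limit of the filter, 10 were called higher in Pkd1 KO kidneys, against 22.7% of all tested genes. Their part in these differences was not tested.

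**Figure D1:**
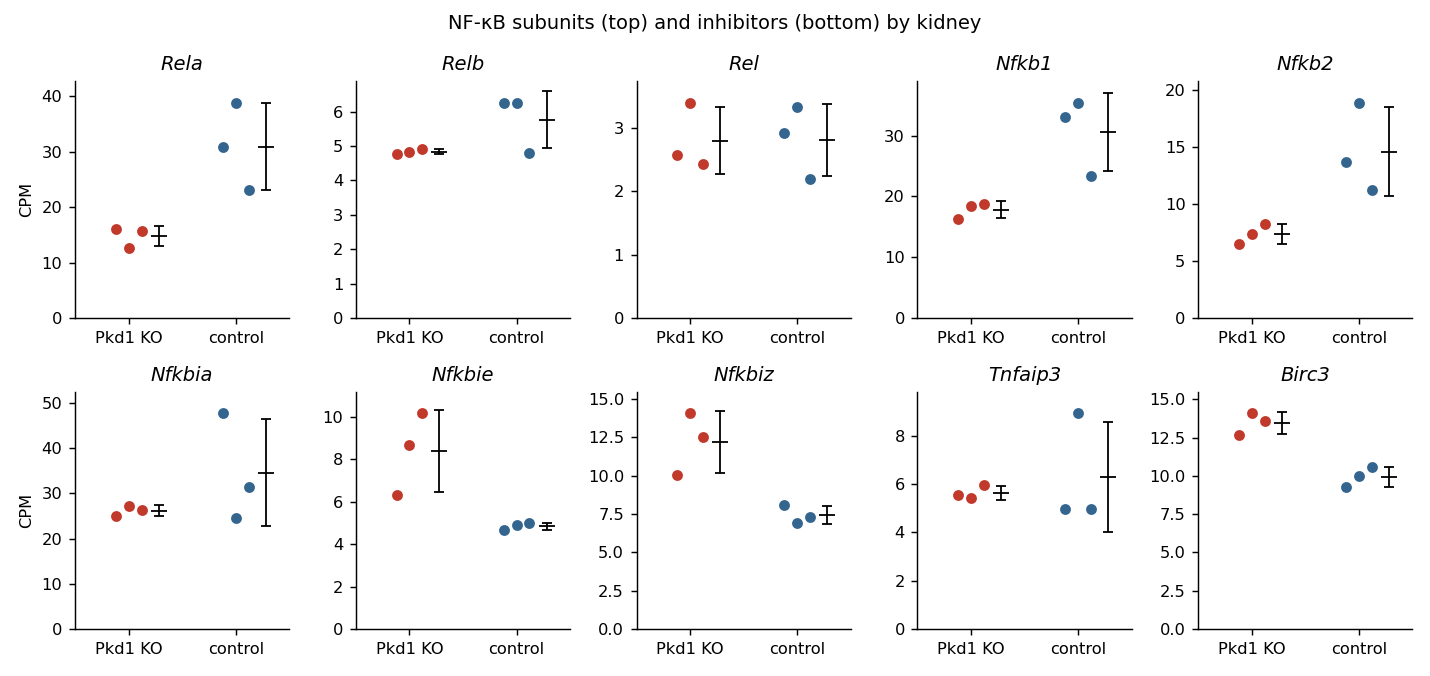
CPM (vertical axes, each from 0) of the 5 subunit genes in the upper row and the 5 inhibitor genes in the lower row, by kidney, Pkd1 KO left and control right; bars are mean ± SD, n = 3 each. Rela, Nfkb1 and Nfkb2 lay lower and Nfkbie, Nfkbiz and Birc3 higher in all 3 Pkd1 KO kidneys than in any control, while the other 4 overlap.

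Rela (ENSMUSG00000024927, chromosome 19) encodes RelA or p65, the main transactivating subunit of the canonical route. Its level was 16.1, 12.7 and 15.8 CPM in the Pkd1 KO kidneys, against 30.9, 38.9 and 23.1 CPM in the controls. Every Pkd1 KO kidney lay below every control, and the controls were more spread. The means were 14.9 ± 1.85 CPM in Pkd1 KO and 31.0 ± 7.90 CPM in control kidneys (SD, n = 3 each). That is 0.480 of the control level and a log2 fold change of −1.06 ± 0.21 (adjusted p = 0.00455 in edgeR). The offset fit reduced it to −0.45 (adjusted p = 0.0364). The call held without any single library in the fit without offsets (adjusted p up to 0.0296 in edgeR), whereas with offsets it held in 1 of 6 such fits, that without control 3, and the adjusted p reached 0.149 in edgeR without KO 2.

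Nfkb1 (ENSMUSG00000028163, chromosome 3) encodes p105, the precursor of p50. Its level was 16.3, 18.5 and 18.8 CPM in Pkd1 KO kidneys, against 33.04, 35.4 and 23.4 CPM in controls. Here too the groups lay apart, with control 3 nearest to the Pkd1 KO kidneys. The log2 fold change was −0.78 ± 0.18 (adjusted p = 0.00848 in edgeR) and in the offset fit −0.40 (adjusted p = 0.0343). With offsets the call was lost without control 1, KO 1, KO 2 or KO 3 (adjusted p of 0.136, 0.122, 0.108 and 0.0810 in edgeR).

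Nfkb2 (ENSMUSG00000025225, chromosome 19) encodes p100, at once an inhibitor and the precursor of p52. Pkd1 KO kidneys had 6.53, 7.40 and 8.22 CPM, against 13.7, 18.9 and 11.2 CPM in controls. The groups did not overlap, and the log2 fold change was −0.98 ± 0.21 (adjusted p = 0.0066 in edgeR). In the offset fit its value was −0.065 with no call (adjusted p = 0.746), turning to 0.0047 without control 2 and 0.019 without KO 1. Rela, with the same GC content of 59.4% but an exon length of 3072 bases against 4584 in Nfkb2, kept its call in that fit. The cause of the difference was not tested. The Nfkb2 exons overlap 2 annotated genes on the opposite strand, Psd and AC114539.1, over 18.1% of their length, while no other member overlaps a gene. Reads there are left out of the column that ignores strand. The sum of the strand columns was 1.55, 1.44 and 1.55 times that column in Pkd1 KO kidneys and 1.34, 1.24 and 1.33 times in controls. That sum also takes in any reads of Psd and AC114539.1 at the overlap. Tested on it, Nfkb2 stood at −0.74 (adjusted p = 0.0134 in edgeR).

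The other subunits were not called. Relb (ENSMUSG00000002983, chromosome 7), the partner of p52, had 4.77, 4.82 and 4.91 CPM in Pkd1 KO kidneys, against 6.23, 6.26 and 4.802 CPM in controls, of which control 3 fell among the Pkd1 KO values. Its log2 fold change was −0.26 ± 0.18 (95% interval −0.65 to 0.14, adjusted p = 0.258 in edgeR), and the offset fit turned the sign to 0.32 (adjusted p = 0.120). Rel (ENSMUSG00000020275, chromosome 11), the c-Rel subunit best known from lymphoid cells, had 2.57, 3.39 and 2.43 CPM in Pkd1 KO kidneys, against 2.91, 3.32 and 2.20 CPM in controls. The groups overlapped, and the log2 fold change of −0.0088 ± 0.24 (95% interval −0.54 to 0.53, adjusted p = 0.979 in edgeR) turned to 0.16 with upper-quartile scaling, which moved the median of all genes by over 0.1, to 0.19.

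Among the inhibitors, Nfkbie (ENSMUSG00000023947, chromosome 17) encodes IκBε, an inducible IκB protein that holds RelA and c-Rel dimers. It had 6.33, 8.69 and 10.2 CPM in Pkd1 KO kidneys, against 4.66, 4.89 and 4.98 CPM in controls. The controls were close together, and the lowest Pkd1 KO kidney, KO 1, lay above all of them. The means were 8.40 ± 1.94 and 4.85 ± 0.165 CPM in Pkd1 KO and control kidneys (SD, n = 3 each). The 1.73-fold difference is 0.79 ± 0.20 on the log2 scale (adjusted p = 0.0123 in edgeR), and 1.07 in the offset fit (adjusted p = 0.00451). Without control 1, KO 2 or KO 3 the adjusted p in edgeR was 0.0554, 0.0508 and 0.0586, while with offsets the call held in 6 of 6 such fits.

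Nfkbiz (ENSMUSG00000035356, chromosome 16) encodes IκBζ, a nuclear member of the family that is induced by interleukin-1 and Toll-like receptor signals and promotes a set of secondary targets, Lcn2 among them. Pkd1 KO kidneys had 10.03, 14.1 and 12.5 CPM, against 8.06, 6.93 and 7.31 CPM in controls. Each Pkd1 KO kidney was above each control. The log2 fold change was 0.71 ± 0.17, or 1.64-fold (adjusted p = 0.0104 in edgeR), and 0.92 in the offset fit (adjusted p = 0.00436). Without KO 2 the adjusted p was 0.0547 in edgeR, and with offsets the call held in 6 of 6 fits that left out a library.

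Birc3 (ENSMUSG00000032000, chromosome 9) encodes cIAP2, a ubiquitin ligase of the tumour necrosis factor receptor complex that also keeps NIK low. It had 12.7, 14.1 and 13.6 CPM in Pkd1 KO kidneys, against 9.25, 9.995 and 10.5 CPM in controls. Both groups were tight and apart. The log2 fold change was 0.44 ± 0.14, or 1.35-fold (adjusted p = 0.0326 in edgeR), and 0.38 in the offset fit (adjusted p = 0.0397). The call was lost without control 1, KO 1, KO 2 or KO 3 (adjusted p of 0.137, 0.0679, 0.119 and 0.106 in edgeR), with the value between 0.36 and 0.48 whichever library was left out, and with offsets it was lost without the same 4 libraries.

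Nfkbia (ENSMUSG00000021025, chromosome 12) encodes IκBα, the classic rapid feedback inhibitor. It had 25.01, 27.2 and 26.4 CPM in Pkd1 KO kidneys, against 47.7, 24.6 and 31.5 CPM in controls. The Pkd1 KO kidneys were alike, and the controls spanned them, with control 1 highest. The log2 fold change was −0.40 ± 0.23 (95% interval −0.91 to 0.11, adjusted p = 0.172 in edgeR). It was −0.13 without control 1 (adjusted p = 0.598 in edgeR), −0.63 without control 2 (adjusted p = 0.0118 in edgeR) and −0.69 in the offset fit (adjusted p = 0.0290). With offsets and a library left out, the call held without control 2 or control 3 (adjusted p = 0.00561 and 0.0105 in edgeR), and the adjusted p was 0.0751 to 0.102 in the other 4 fits.

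Tnfaip3 (ENSMUSG00000019850, chromosome 10) encodes A20, a ubiquitin-editing enzyme that ends signals to IKK. It had 5.54, 5.43 and 5.98 CPM in Pkd1 KO kidneys, against 4.99, 8.94 and 4.98 CPM in controls, of which control 2 lay above and the others below every Pkd1 KO kidney. The log2 fold change was −0.16 ± 0.25 (95% interval −0.72 to 0.40, adjusted p = 0.614 in edgeR), and its sign turned without control 2 (0.15), with upper-quartile scaling (0.012) and with offsets (0.084).

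**Figure D2:**
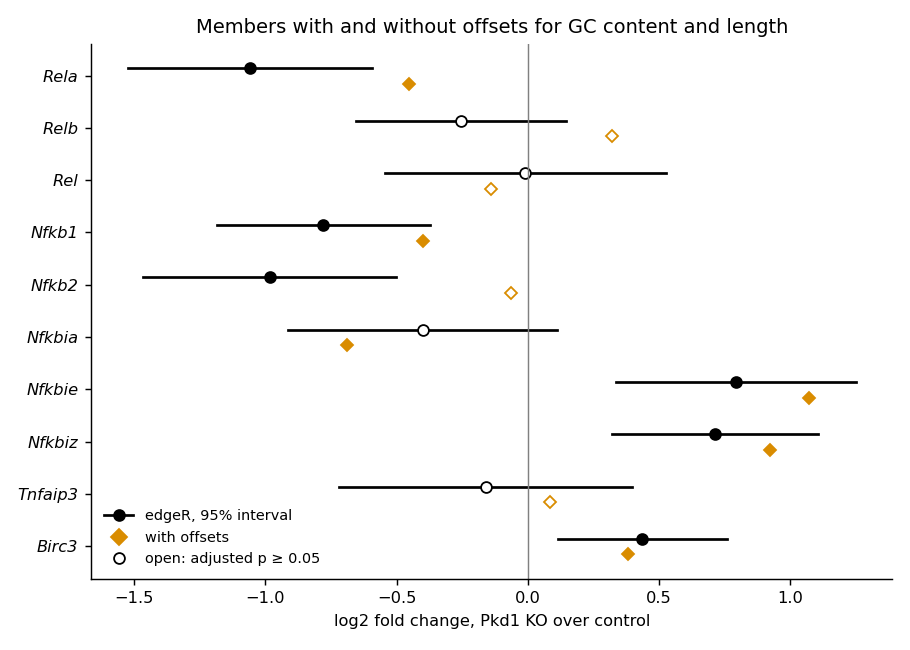
Log2 fold change of Pkd1 KO over control (horizontal axis) for each member; circles are edgeR values with their 95% intervals, diamonds the values with offsets for GC content and length, and open symbols did not pass an adjusted p of 0.05. Nfkbie, Nfkbiz and Birc3 lie right of 0 in both fits, Rela and Nfkb1 left of 0 in both, and Nfkb2 moves from −0.98 to −0.065 with offsets.

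Members' levels can be compared with each other only per exon length. On the scale of CPM per kilobase of exon, Nfkbia was the most abundant member, at 16.3 ± 0.695 in Pkd1 KO and 21.5 ± 7.39 in control kidneys, followed by Rela at 4.84 ± 0.603 and 10.08 ± 2.57. Rel was the least abundant, at 0.375 ± 0.0699 in Pkd1 KO and 0.376 ± 0.0760 in control kidneys, below Tnfaip3 at 0.782 ± 0.0406 and 0.872 ± 0.316. The middle of the order differed between the groups. The Nfkb2 level can be understated, since reads from the overlapped 18.1% of its exon length are left out while that length is counted. The strand columns keep those reads, with any of the overlapping genes, and summed to 1.44 to 1.55 times its count in Pkd1 KO kidneys. In controls they summed to 1.24 to 1.34 times, so the place of Nfkb2 in the order is not settled. In Pkd1 KO kidneys Nfkbie (2.76 ± 0.638), Birc3 (2.68 ± 0.145) and Nfkbiz (2.43 ± 0.406) stood above Nfkb2 (1.61 ± 0.185), Nfkb1 (1.48 ± 0.115) and Relb (1.24 ± 0.0180). In controls Nfkb2 (3.19 ± 0.857) and Nfkb1 (2.54 ± 0.528) stood above Birc3 (1.98 ± 0.130), Nfkbie (1.59 ± 0.0543), Relb (1.48 ± 0.215) and Nfkbiz (1.48 ± 0.114). In the Pkd1 KO kidneys the ranges of Nfkbie, Birc3 and Nfkbiz overlapped from neighbour to neighbour, as did those of Nfkb2 and Nfkb1. In controls those of Nfkb2, Nfkb1 and Birc3 did, and those of Nfkbie, Relb and Nfkbiz.

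Within a library the makeup of the subunit transcripts does not depend on the scaling between libraries. It can still follow GC content and length, and the shares were not computed with offsets. Rela made up 54.7%, 46.1% and 50.9% of subunit reads per kilobase in the Pkd1 KO kidneys, against 56.5%, 58.1% and 56.0% in controls. Relb made up 12.8%, 13.8% and 12.5% in Pkd1 KO, against 9.03%, 7.40% and 9.20% in control kidneys. Rel had 3.59%, 5.06% and 3.23% in Pkd1 KO kidneys, against 2.19%, 2.04% and 2.19% in controls. The Rela share was thus lower and the Relb and Rel shares higher in each Pkd1 KO kidney than in each control, while the shares of Nfkb1 and Nfkb2 overlapped. By CPM the groups lay apart for 61.2% of all tested genes. The Nfkb2 reads left out at its overlap with other genes are missing from the total behind every share.

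**Figure D3:**
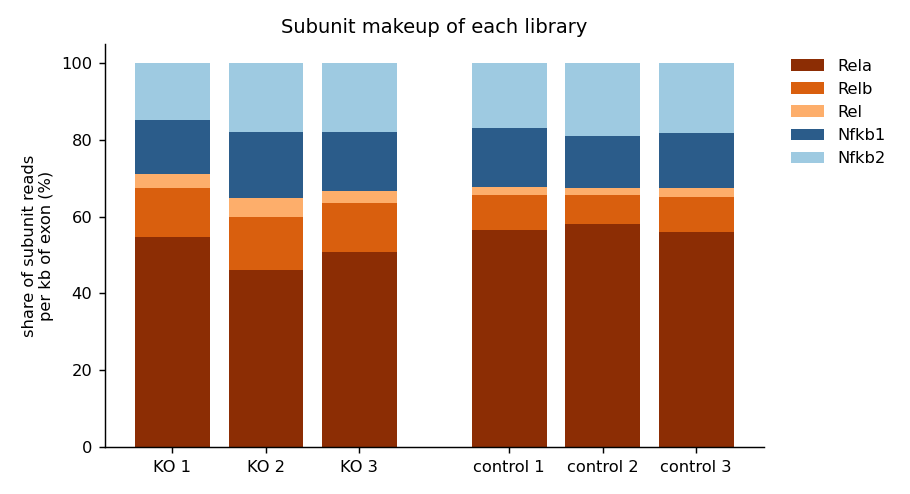
Share of each of the 5 subunit genes (colours) in the subunit reads per kilobase of exon, in percent, for the 3 Pkd1 KO and 3 control libraries. The Relb segment is 12.5% to 13.8% in Pkd1 KO and 7.40% to 9.20% in control libraries.

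The comparison covered 4 ratios of members, 2 of which share Rela. The ratio of Relb to Rela was 0.234, 0.2996 and 0.246 in the Pkd1 KO kidneys and 0.160, 0.127 and 0.164 in controls, a difference of 0.79 on the log2 scale and 0.76 with offsets. The ratio of Rel to Rela was 0.0656, 0.1098 and 0.0635 in the Pkd1 KO kidneys and 0.0388, 0.0351 and 0.0392 in controls, a log2 difference of 1.03 that dropped to 0.31 with offsets. The ratio of Nfkbiz to Nfkbia, the nuclear and the cytoplasmic inhibitor, was 0.129, 0.166 and 0.152 in Pkd1 KO, against 0.0542, 0.0906 and 0.0744 in control kidneys, a log2 difference of 1.05, and 1.55 with offsets. In these 3 ratios the groups did not overlap, and each had an exact two-sided permutation p of 0.1, the smallest that 3 against 3 kidneys allow, and 0.133 adjusted over the 4 ratios. Single genes lay apart by CPM in 61.2% of those tested, and no such share over pairs of genes was computed. The ratio of Nfkb2 to Nfkb1 was 1.06, 1.05 and 1.15 in Pkd1 KO and 1.09, 1.40 and 1.26 in control kidneys, with overlap (log2 difference −0.20, exact permutation p = 0.2, adjusted p = 0.2), and turned to 0.33 with offsets. This ratio leaves out Nfkb2 reads at the overlap with other genes, and the summed strand columns exceeded the count by more in Pkd1 KO kidneys. Its value on the summed strand columns was not computed.

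**Figure D4:**
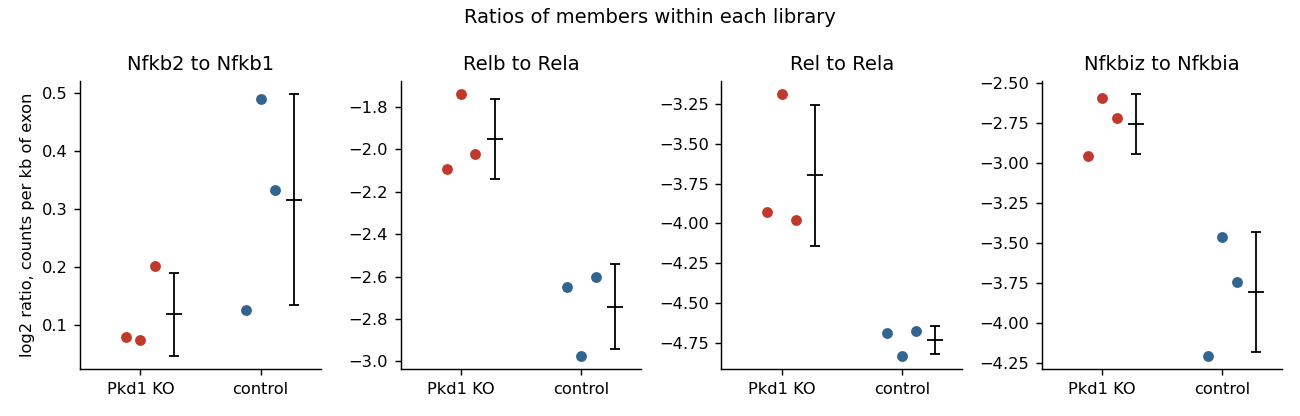
Log2 ratio of 2 members' counts per kilobase of exon (vertical axis, not from 0) in each library, Pkd1 KO left and control right; bars are mean ± SD, n = 3 each. The Relb to Rela, Rel to Rela and Nfkbiz to Nfkbia ratios are higher in all 3 Pkd1 KO kidneys, and Nfkb2 to Nfkb1 overlaps.

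Upstream of the members stand receptors that feed NF-κB. Of 9 receptor genes 4 rose and 1 fell (5 and 0 with offsets), with a median of 0.36, against 22.7% higher, 24.2% lower and a median of 0.026 over all genes (17.1% and 17.3% with offsets). Tnfrsf12a, the receptor of the cytokine TWEAK, had 61.0 ± 3.09 CPM in Pkd1 KO and 20.1 ± 7.70 CPM in control kidneys (1.60 ± 0.25, adjusted p = 0.00274 in edgeR; offset fit 1.76). Cd40, which signals through NIK, had 5.84 ± 1.06 and 2.13 ± 0.938 CPM in Pkd1 KO and control kidneys (1.47 ± 0.31, adjusted p = 0.0059 in edgeR; offset fit 1.36). Tlr4, the lipopolysaccharide receptor, rose by 1.27 and Tlr2 by 0.78 on the log2 scale (0.75 and 0.63 with offsets). The receptor that fell was Tnfrsf1a, the main receptor of tumour necrosis factor (−0.45 ± 0.12, adjusted p = 0.0167 in edgeR; offset fit −0.24, adjusted p = 0.0939).

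Adaptors and kinases link these receptors to IKK. Of 21 genes 2 rose, 7 fell and 12 were not called, at a median of −0.096 (4 rose and 4 fell with offsets). Over all genes 46.9% were called, and 34.5% with offsets, so the number of calls in this list is near the background. Traf3, the adaptor that restrains NIK, had 7.79 ± 0.911 CPM in Pkd1 KO and 21.1 ± 7.88 CPM in control kidneys (−1.44 ± 0.26, adjusted p = 0.00355 in edgeR; offset fit −0.69, adjusted p = 0.0106). Traf6, the ubiquitin ligase of interleukin-1 and Toll-like receptor signals, had 15.5 ± 0.215 and 34.2 ± 6.89 CPM in Pkd1 KO and control kidneys (−1.14 ± 0.17, adjusted p = 0.00259 in edgeR; offset fit −0.96). Tab1 (−0.79) and Ticam1 (−0.74) also fell, and neither was called with offsets (adjusted p = 0.363 and 0.0907). Traf1, an adaptor that is itself a target of NF-κB, rose by 0.67 (1.52 with offsets), as did Traf5 by 0.68 (0.15 with offsets, adjusted p = 0.472).

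The IKK genes were not called. Chuk (IKKα) stood at −0.096 (adjusted p = 0.620 in edgeR), Ikbkb (IKKβ) at −0.28 (adjusted p = 0.103 in edgeR), Ikbkg (NEMO) at −0.047 (adjusted p = 0.775 in edgeR) and Map3k14 (NIK) at 0.15 (adjusted p = 0.407 in edgeR). The offset fit called Chuk lower (−0.55, adjusted p = 0.0226), and Ikbkb (0.77, adjusted p = 0.0141) and Map3k14 (1.198, adjusted p = 0.00327) higher, so for Ikbkb the sign depended on the offsets.

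The IκB genes outside the 10 members did not share a direction. Nfkbib, the gene of IκBβ, which is not an inducible feedback product, fell (−0.72 ± 0.16, adjusted p = 0.00646 in edgeR; offset fit −0.44). Nfkbid, the gene of the nuclear protein IκBNS, was low and rose, at 1.09 ± 0.0402 CPM in Pkd1 KO and 0.485 ± 0.104 CPM in control kidneys (1.16 ± 0.29, adjusted p = 0.0110 in edgeR; offset fit 1.39). Bcl3 stood at −0.48 (adjusted p = 0.0574 in edgeR), and at 0.18 with offsets.

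Among 16 ubiquitin regulators of the pathway 4 rose and 7 fell (median −0.44), and with offsets 2 rose and 4 fell. The shares over all genes were 22.7% higher and 24.2% lower, and 17.1% and 17.3% with offsets. Tnip3, among the 4 that rose, would not have passed the filter on its control libraries alone. With offsets the number of calls is near the 34.5% called over all genes in that fit. The genes that fell included 2 subunits of the linear ubiquitin ligase, Rnf31 (−0.93, offset fit −0.51) and Rbck1 (−0.83, offset fit 0.11 with adjusted p = 0.538), the inhibitor N4bp1 (−1.10, offset fit −0.19 with adjusted p = 0.221) and the deubiquitinase Otud7b (−0.79, offset fit −0.27 with adjusted p = 0.0803). Birc2, the cIAP1 paralog of Birc3, rose to 64.8 ± 4.43 CPM in Pkd1 KO, against 37.6 ± 8.87 CPM in control kidneys (0.79 ± 0.18, adjusted p = 0.00827 in edgeR; offset fit 0.42), and Rnf11, a partner of A20, rose by 0.92 (0.48 with offsets).

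Downstream, the list of inducible targets holds chemokines, cytokines, survival and antioxidant genes. Of 26 listed, 22 passed the filter, and 12 of these rose and 2 fell, at a median of 0.84 (10 and 2 with offsets, median 0.79), against 22.7% higher and 24.2% lower over all genes (17.1% and 17.3% with offsets). Ccl2, Cxcl2, Bcl2a1a and Bcl2a1d are among the rises and would not have passed the filter on their control libraries alone. The filter favours such genes where they are higher in Pkd1 KO kidneys, so the count and the median do not speak for all 26. Lcn2, the gene of lipocalin 2 and a known target of IκBζ, had 10.3 ± 4.72 CPM in Pkd1 KO and 2.04 ± 0.354 CPM in control kidneys (2.34 ± 0.37, adjusted p = 0.0028 in edgeR; offset fit 2.44). The chemokine genes Cxcl1 (3.10) and Ccl2 (2.81) had the largest rises among targets whose mean log2 CPM was 0 or more (offset fit 2.43 and 2.01). The rise of Ccl2, at 0.699, 0.173 and 0.740 CPM in controls, carries the limit of the filter given above. The genes that fell were Sod2, the mitochondrial superoxide dismutase (−0.61 ± 0.14, adjusted p = 0.00895 in edgeR; offset fit −0.58), and Sqstm1, the autophagy receptor p62 (−0.59 ± 0.15, adjusted p = 0.0138 in edgeR; offset fit −0.35, adjusted p = 0.0800). Icam1, the adhesion gene often used as a readout of the pathway, had 15.6 ± 0.947 and 16.5 ± 0.889 CPM in Pkd1 KO and control kidneys (−0.079, adjusted p = 0.651 in edgeR), and the offset fit turned it to 0.46 (adjusted p = 0.0159).

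**Figure D5:**
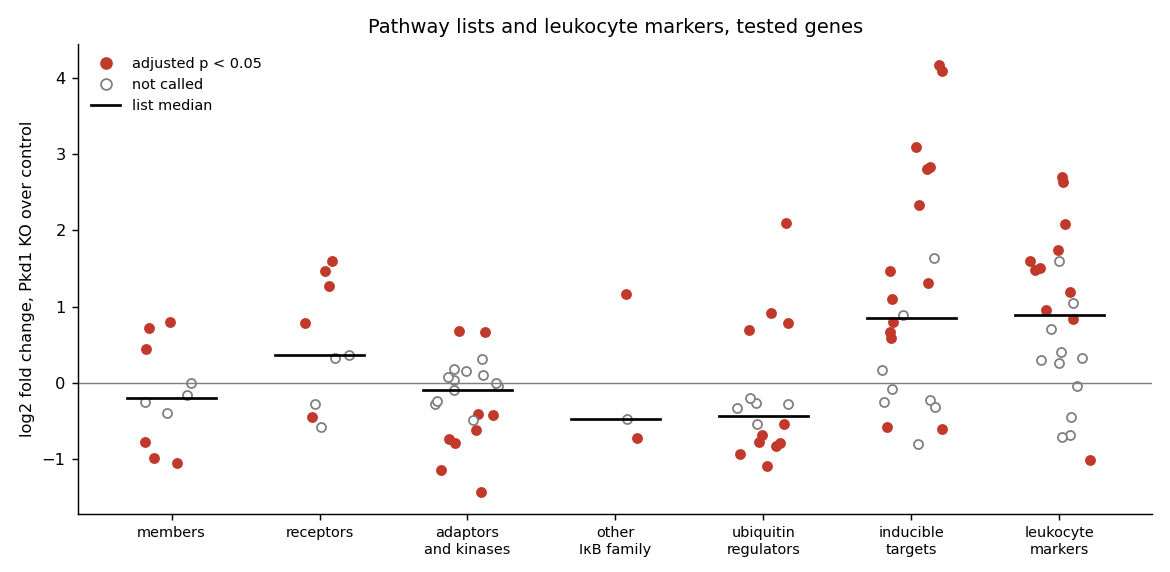
Log2 fold change of Pkd1 KO over control (vertical axis) for each tested gene of the members, the pathway lists and the leukocyte markers; filled points passed an adjusted p of 0.05 and bars are list medians. Medians run from −0.48 in the other IκB genes to 0.84 in the inducible targets and 0.89 in the leukocyte markers.

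Leukocyte markers were measured because the pathway is strong in leukocytes. Of 22 markers of macrophages, lymphocytes and granulocytes, 10 rose, 1 fell and 11 were not called, at a median of 0.89 (7 rose and 1 fell with offsets, median 0.58), and none was at 0 in any library. Over all genes 22.7% were higher and 24.2% lower (17.1% and 17.3% with offsets). Ms4a1, S100a8 and S100a9 are among the rises and would not have passed the filter on their control libraries alone. Ncr1 and Cd79a would not have passed on their control libraries either, and they were not called (adjusted p = 0.0602 and 0.627 in edgeR). The filter favours such genes where they are higher in Pkd1 KO kidneys, so the count does not speak for all 22 markers. Their summed level was 188 to 311 CPM in Pkd1 KO and 115 to 141 CPM in control kidneys. Without lysozyme, Lyz2, at 150 ± 47.2 CPM in Pkd1 KO and 23.1 ± 9.23 CPM in control kidneys, the sums were 90.8 to 122 CPM and 90.3 to 115 CPM, which overlap. These sums still hold Csf1r, which fell, at 25.6 ± 0.0581 CPM in Pkd1 KO and 51.5 ± 9.99 CPM in control kidneys. No sum without both genes was taken, so the overlap does not place the rise in Lyz2 alone. Ptprc, the gene of the leukocyte antigen CD45, rose (0.96 ± 0.20, adjusted p = 0.00595 in edgeR; offset fit 1.03), and the macrophage receptor Csf1r was the marker that fell (−1.01 ± 0.17, adjusted p = 0.00297 in edgeR; offset fit −0.33). Kidney epithelium markers, counted as a check of the tissue, were all detected. Of 14, 10 fell and 1, the proton pump subunit gene Atp6v1g3, rose (8 fell and 1, Pax8, rose with offsets), with sums of 5683 to 6171 CPM in Pkd1 KO and 9573 to 16193 CPM in control kidneys. The part of either cell compartment in the values of Rela, Nfkb1, Nfkb2, Nfkbie, Nfkbiz and Birc3 was not tested.

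The calls can be set beside the promoter windows. Among the 4 called members with an entry, Nfkbie was higher and Nfkb2 lower with a match, and Birc3 was higher and Rela lower without one. The 3 uncalled members with an entry, Rel, Nfkbia and Tnfaip3, all had a match.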

How the data were processed

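Messenger RNA of whole snap-frozen kidneys was measured by RNA sequencing in 3 Pkd1 KO and 3 control mice, and groups were taken from the sample titles. The authors deposited raw read counts per gene, 1 table per run and 7 in all, with no normalization. Per the submitters' processing notes, STAR 2.6.1e, cutadapt 4.0 and FastQC 0.11.8 were used, with build GRCm39, while the annotation used for counting is not given in the sources used. The column of counts that ignores strand was used, and both runs of control 1 were summed. Lines that name no gene (25.3% to 26.3% of reads in Pkd1 KO and 22.9% to 23.8% in control libraries, which do not overlap) were removed before library sizes were taken. GENCODE M21, an older build, supplied symbols, union exon lengths and the GC content of the longest transcript, joined by identifier with 52073 of 56923 matched, and promoters from the RefSeq table for GRCm38.p6.

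edgeR 4.0.16 (R 4.3.3) ran filterByExpr, TMM scaling and the quasi-likelihood test on all genes, at a threshold of 0.05. SE is the absolute log2 fold change over the square root of F. CPM values use TMM library sizes. The offset fit entered, per library, a robust local linear loess (span 0.3) of log2 CPM, relative to the mean over libraries, on GC content and log2 exon length, for 17785 genes, and it would also take out any true difference that follows these features. It was run after the same trend had been seen in earlier results of these data. DESeq2 1.42.0, other scalings, no filter, the replicate number as a block, the deeper run of control 1 alone and leaving out each library were alternatives. The fits were tested on simulated data.

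The members and lists were chosen with earlier results of these data known. Named genes were all members, and from each other list at most 4 called genes with the greatest change in the direction of most calls and 2 in the opposite one, among those whose mean log2 CPM was 0 or more, with the IKK genes, Map3k14 and the remaining IκB genes whatever their call. Fewer are printed. Icam1, Ptprc and the genes of the closing observations were chosen after their values were seen.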

Additional observations from a re-analysis of the deposited data

How the results depend on the processing

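Over all genes, 8579 were called, and the count was 5071 to 10318 with a single library left out (5071 without KO 2), 2825 to 7502 with offsets and a library left out (4000 without KO 1, 2825 for KO 2, 3445 for KO 3 and 3610 for control 1), 5399 with the replicate block and offsets together, and within 1.5 times of 8579 under each other alternative. Members called higher numbered 0 without KO 2, 1 without control 1 or KO 3 and 3 at most with a library left out, and 2 to 3 in the same fits with offsets. Members called lower numbered 3 to 4 without offsets and 0 to 3 with them, 0 in each offset fit that left out a Pkd1 KO library or control 1. The replicate block alone called 7397 genes, 2 members higher (Birc3 with an adjusted p of 0.0759 in edgeR) and 3 lower, and with offsets 2 higher and 1 lower. The shared sample numbers gave no sign of a pairing: deviations of same-numbered samples correlated at 0.038, −0.084 and −0.029, and 1 of 6 libraries correlated best with its own number. With 3 kidneys per group this check cannot exclude a pairing by litter or cage. Without a filter and with a quadratic least-squares trend for the offsets, Birc3 was not called (adjusted p of 0.0897 and 0.0725 in edgeR).

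Values that changed sign were Relb, at 0.32 with offsets, 0.30 with the quadratic trend, 0.32 with block and offsets and 0.28 to 0.37 with offsets and a library left out (0.29 without KO 2). Tnfaip3 turned to 0.084, 0.052 and 0.12 in those settings, 0.012 with upper-quartile scaling and −0.35 to 0.15 with a library left out (−0.048 to 0.34 with offsets, 0.11 without KO 2 and 0.043 without KO 3). Rel turned to 0.16 with upper-quartile scaling, 0.012 on the summed strand columns and −0.21 to 0.093 with a library left out, and Nfkb2 ranged from −0.12 to 0.019 with offsets and a library left out (0.0047 without control 2). The log2 ratio of Nfkb2 to Nfkb1 was 0.33 with offsets and −0.29 to −0.11 with a library left out. With offsets the ratio of Rel to Rela was 0.31 and that of Nfkbiz to Nfkbia 1.55. With a library left out the ratios were 0.67 to 0.86 for Relb to Rela, 0.78 to 1.17 for Rel to Rela and 0.85 to 1.22 for Nfkbiz to Nfkbia. The cause was not tested. Leaving libraries out of the offset fit, the quadratic trend and the summed strand columns were chosen after seeing the data. Rel was low, with under 3.4 CPM and 98 to 207 reads per library. Its SE of 0.24 was near the 0.23 of Nfkbia, which had 1237 to 2458 reads per library.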

Other observations

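Some inducible genes of the NF-κB pathway were near the floor of the counts in controls and were picked here after their values were seen. Il6, the interleukin-6 gene, had 8, 50 and 28 reads in the Pkd1 KO libraries, against 0, 0 and 0 in controls. Ccl20, a chemokine gene of mucosal epithelium, had 9, 35 and 23 reads in Pkd1 KO, against 2, 0 and 0 in control libraries. Neither passed the filter on low counts, so neither was tested. The same holds for the listed targets Bcl2a1b and Csf2, in which the groups overlapped. Bcl2a1b had 2, 19 and 11 reads in Pkd1 KO and 1, 4 and 0 in control libraries. Csf2 had 0, 1 and 2 reads in Pkd1 KO and 0, 0 and 1 in control libraries.

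Cxcl2, a neutrophil chemokine gene, passed the filter at 0.485, 1.71 and 1.01 CPM in Pkd1 KO, against 0.0194, 0.121 and 0.0224 CPM in control kidneys. Tnip3, which encodes a binding partner of A20, had 0.687, 1.12 and 0.742 CPM in Pkd1 KO, against 0.194, 0.0173 and 0.404 CPM in control kidneys. Neither gene would have passed the filter on its control libraries alone, so no test is given here, though each counts among the rises of its list. Tnfaip3, the gene of A20 itself, was not called.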
